A study of Mus musculus with 8 samples.

Results

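The 71 genes described here carry the symbols of mitochondrial ribosomal proteins and were taken, of 22180 genes measured, by a symbol that begins with Mrpl or Mrps and goes on with a number. A gene was measured where an array feature (a probe set, the group of probes read as 1 value) was annotated with 1 symbol, and where several probe sets fitted, the one with the highest mean was used. There were 43 Mrpl and 28 Mrps genes. By structure 45 of them belong to the large subunit and 25 to the small one, since Mrps30 and Mrps18a sit in the large subunit despite their names. Mrps36, also known as Kgd4, is a component of the alpha-ketoglutarate dehydrogenase complex and belongs to neither subunit. A further 7 genes with such symbols (Mrpl30, Mrpl33, Mrpl41, Mrpl43, Mrpl44, Mrpl53 and Mrps6) had only probe sets shared with another gene and were not analysed here.

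The mitochondrial ribosome translates the few messages that mitochondrial DNA encodes, which are core subunits of the respiratory chain and of ATP synthase. All of its proteins are made from nuclear genes and imported, so that its supply depends on the nucleus while its RNA comes from the mitochondrion. Many of the proteins have counterparts in bacterial ribosomes and others are found only in mitochondria. In melanocytes the coactivator Ppargc1a, a driver of mitochondrial biogenesis, acts downstream of melanocyte-stimulating hormone.

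Expression was measured on 8 mouse arrays with amplified cDNA from single-cell suspensions of whole skin, sorted for GFP and against surface p75. P4_WT (2 arrays) is the melanoblast population of pups aged 4 days and P21_WT (2 arrays) the melanocyte stem cell population of mice aged 21 days, both B-raf +/+ and C-raf +/+. P21_KO (4 arrays) is the same population at 21 days from mice homozygous for floxed alleles of both genes (B-raf fl/fl and C-raf fl/fl). All groups, controls included, carried Tyr::Cre, in which a tyrosinase promoter drives Cre, and the Z/EG reporter, which gives GFP after recombination. The strain background was mixed C57Bl/6 and 129/Sv. The floxed alleles came from 129/Sv and the transgenes from C57Bl/6, so the share of each background and the genotype cannot be told apart. Cre acts only in cells that have used that promoter, so the rest of the skin keeps both kinases. The sample titles call the arrays biological replicates. The labels give 3 of the P21_KO arrays (replicates 2, 3 and 4) 1 common number and do not say what it marks. If these are not separate animals, the p-values measure a spread that is partly technical.

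Sorted identity was checked on marker lists. The mean log2 value of 10 melanocyte lineage genes (Mitf, Sox10, Dct, Tyr and others) was 9.60 and 9.64 in P4_WT, 9.04 and 8.82 in P21_WT and 7.05 to 8.55 in P21_KO. The mean of 11 measured proliferation genes was 6.52 and 6.76 in P4_WT, 4.27 and 4.26 in P21_WT and 3.82 to 4.18 in P21_KO. The P4_WT arrays differed in markers of other cells. Replicate 1 was at 6.85 for 7 measured hair shaft and root sheath genes, replicate 2 at 4.64, and the P21 arrays at 2.79 to 2.91. Replicate 2 was at 5.10 for 8 measured immune genes and 5.82 for 7 endothelial genes, where replicate 1 was at 2.82 and 3.65 and the P21 arrays at 2.99 to 3.24 and 3.25 to 3.57. The mean of 9 measured keratinocyte genes was 6.88 and 5.81 in P4_WT and 6.39 to 7.46 on the P21 arrays. The mean of 6 measured Schwann cell and glial genes (of 8 listed) was 7.05 and 6.85 in P4_WT and 7.48 to 7.84 on the P21 arrays. By age 4 of these 6 were called higher (Egr2, Mal, Mbp and Pmp22), and Fabp7, at -1.22, was lower without passing the test. The mean of 7 fibroblast genes was 6.47 and 6.90 in P4_WT and 5.95 to 6.49 on the P21 arrays, and that of 6 skeletal muscle genes 2.85 and 3.27 against 2.96 to 4.02. Xist, the RNA of the inactive X chromosome, was at 8.94 in P4_WT replicate 2 and at 1.95 to 2.77 elsewhere. What these differences contribute to the results below was not tested.

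Most mitochondrial ribosomal protein genes were lower in melanocyte stem cells than in melanoblasts. The age comparison, P21_WT minus P4_WT, asks how the older population differs from the younger one. Of the 71 genes 60 were lower in P21_WT (84.5%), where 49.8% of all genes were lower. Their median log2 change was -0.60 (quartiles -1.01 and -0.20), against 0.00 for all genes and -0.06 for the 11160 genes with a mean above the median value of the arrays. Fewer cells that express these genes and less RNA per cell cannot be told apart in sorted bulk samples.

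Few of these genes passed the test singly. Limma called 189 of 22180 genes lower (0.852%) and 168 higher (0.757%) at an adjusted p under 0.05, and of the 71 genes it called 1 lower, Mrpl18, and 0 higher. At an unadjusted p under 0.05, 27 of the 71 were lower and 0 higher, against 7.46% and 5.17% of all genes. Both P21_WT arrays lay below both P4_WT arrays for 46 of the 71, against 22.1% of all genes, and above them for 2, Mrpl28 and Mrps31, against 21.4%. The measured change was past 2-fold lower for 19 of the 71 and for 3.54% of all genes, whether or not it passed the test.

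The mean over the 71 genes on each array shows the same order of groups. It was 5.92 and 5.75 in P4_WT, 5.22 and 5.30 in P21_WT, and 5.34, 4.90, 5.12 and 5.22 in P21_KO. All 6 P21 arrays were below both P4_WT arrays, and the P21_WT arrays lay within the range of P21_KO. P4_WT replicate 2, with the higher immune and endothelial markers, was the lower of the P4_WT arrays in 46 of the 71 genes (64.8%, against 48.4% of all genes). Without P4_WT replicate 1 the median age change was -0.46, and without replicate 2 it was -0.63.

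**Figure D1:**
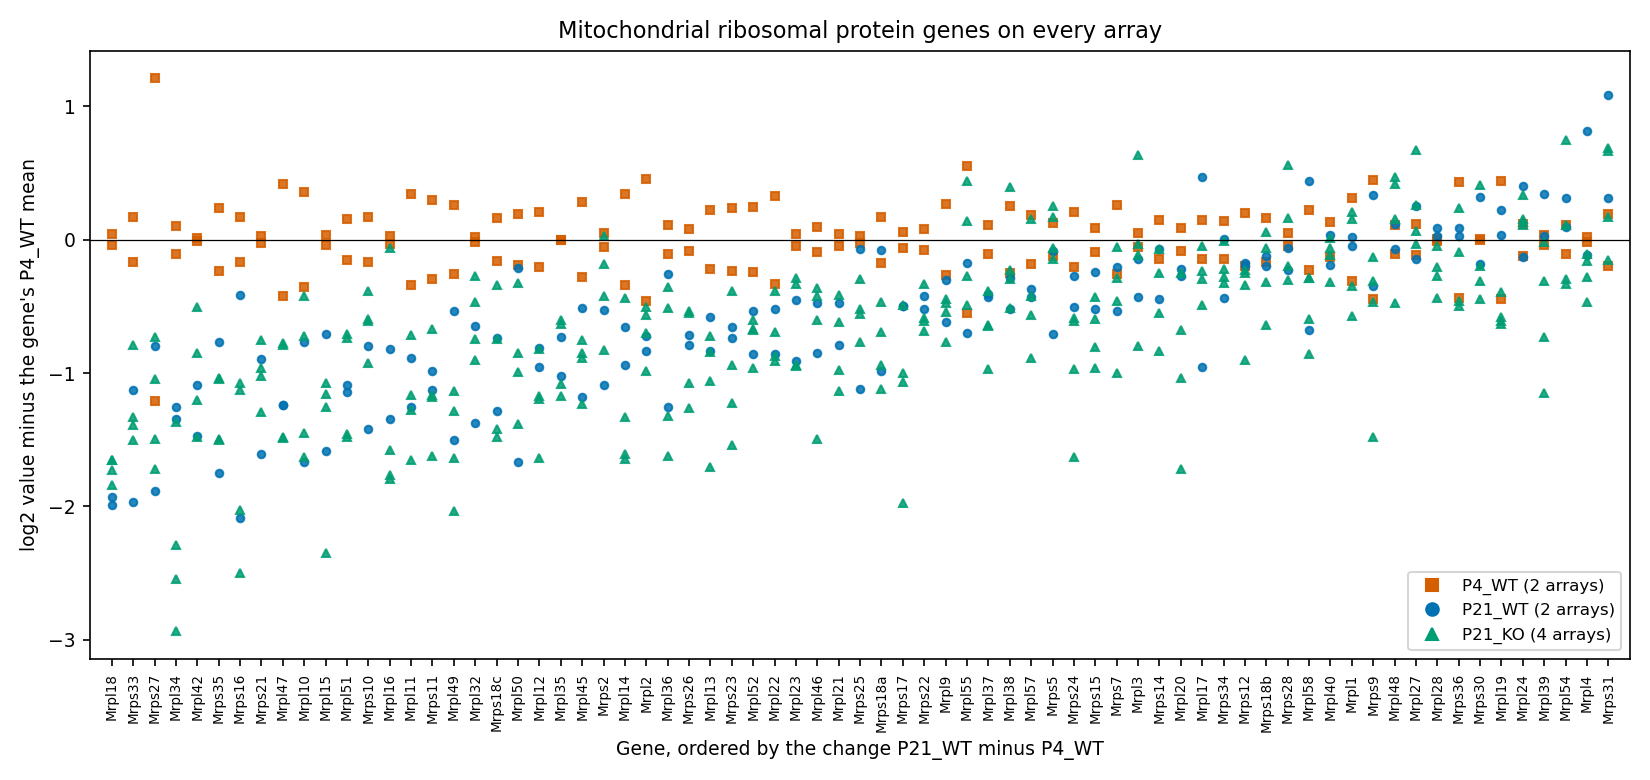
Log2 value of each of the 71 genes on each of 8 arrays, minus that gene's P4_WT mean (vertical axis), with genes ordered by the age change (horizontal axis). Squares are P4_WT, circles P21_WT and triangles P21_KO arrays, and most circles and triangles lie below 0, with 60 genes lower in P21_WT and 64 lower in P21_KO than in P4_WT.

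Mrpl18, whose bacterial counterpart binds 5S ribosomal RNA in the central protuberance of the large subunit, was the clearest case. It read 6.36 and 6.28 in P4_WT, 4.33 and 4.38 in P21_WT, and 4.66, 4.48, 4.59 and 4.67 in P21_KO. The P4_WT arrays were high, all 6 P21 arrays were low, and P21_KO lay just above P21_WT without overlap. It fell 3.89-fold with age (log2 -1.96 ± 0.15 SE, limma adjusted p = 0.00122). It was called in each of the 8 fits that left out 1 array and in each of 12 other settings.

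The stalk of the large subunit, which recruits translation factors, is represented by Mrpl12 and by Mrpl10 and Mrpl11 at its base. Mrpl12 read 5.90 and 6.31 in P4_WT, 5.16 and 5.30 in P21_WT, and 5.29, 4.93, 4.47 and 4.91 in P21_KO. Mrpl11 read 6.38 and 5.70 in P4_WT, 4.78 and 5.15 in P21_WT, and 5.32, 4.39, 4.88 and 4.76 in P21_KO. Mrpl10 read 6.72 and 6.01 in P4_WT, 5.60 and 4.70 in P21_WT, and 5.64, 4.91, 4.73 and 5.94 in P21_KO. For all 3 genes every P21 array was below both P4_WT arrays. Their age changes were -0.88 ± 0.27, -1.07 ± 0.33 and -1.21 ± 0.47 (log2, SE) in that order, with limma adjusted p of 0.191, 0.2 and 0.317. A second, dimmer probe set of Mrpl10 gave an age change of -0.14, and one of Mrpl12 gave -0.71.

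Mrpl34, counterpart of the small bacterial protein L34, showed the widest gap between pups and knockout. It read 7.33 and 7.54 in P4_WT, 6.08 and 6.18 in P21_WT, and 6.07, 4.50, 4.88 and 5.14 in P21_KO. P21_KO replicate 1 lay beside the P21_WT arrays and the other 3 well below them. Mrpl35, counterpart of L35, read 6.32 and 6.32 in P4_WT, 5.58 and 5.29 in P21_WT, and 5.14 to 5.71 in P21_KO. Mrpl42, a mitochondria-specific protein, read 8.74 and 8.76 in P4_WT, 7.28 and 7.66 in P21_WT, and 7.27 to 8.24 in P21_KO. The other mitochondria-specific proteins Mrpl49 and Mrpl51 differed by -1.02 and -1.12 with age. None of these 5 age changes passed the test (limma adjusted p of 0.0945 to 0.31).

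Mrpl47, the L29 counterpart near the exit of the peptide tunnel, had an age change of -1.24 ± 0.35 (SE, limma adjusted p = 0.154). Its arrays read 6.99 and 6.15 in P4_WT, 5.32 and 5.32 in P21_WT and 5.08 to 5.79 in P21_KO. A second, dimmer probe set of the gene gave an age change of 0.12. Among the 9 genes with several probe sets Mrpl47 was the only one whose probe sets differed in the sign of the age change.

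In the small subunit 24 of 25 genes were lower in P21_WT, with a median of -0.50, and 0 passed the test over all genes. Mrps33, a mitochondria-specific protein, read 7.05 and 6.71 in P4_WT, 4.91 and 5.75 in P21_WT, and 5.55, 5.49, 5.37 and 6.09 in P21_KO. Mrps21, counterpart of S21, read 7.80 and 7.86 in P4_WT, 6.23 and 6.94 in P21_WT, and 6.81, 6.54, 6.87 and 7.08 in P21_KO. In both genes the groups of different age did not overlap while P21_WT and P21_KO did. Their age changes were -1.55 ± 0.33 and -1.25 ± 0.26 (log2, SE), each with a limma adjusted p of 0.0636. With genes of low mean left out of the fit both were called, at limma adjusted p of 0.0405 and 0.0482. Mrps10, counterpart of S10, had the next smallest p, at -1.11 ± 0.26 (SE, limma adjusted p = 0.0903).

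Mrps12, the counterpart of the decoding-centre protein S12, read 6.43 and 6.03 in P4_WT and 6.03 and 6.05 in P21_WT. Its age change was -0.19 ± 0.26 (SE, limma adjusted p = 0.87), with overlapping groups. Mrps16, counterpart of S16, had a larger measured change, -1.25 ± 0.61 (SE, limma adjusted p = 0.462), that went with a wide spread. It read 8.65 and 8.98 in P4_WT, 6.73 and 8.40 in P21_WT, and 7.69, 6.32, 7.74 and 6.79 in P21_KO.

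Medians were below 0 in the large and small subunits and in the conserved and mitochondria-specific proteins alike. For the 45 large subunit genes the median age change was -0.66, with 36 lower. For the 43 genes listed with a bacterial counterpart it was -0.68, with 38 lower. For the 27 listed as particular to mitochondrial ribosomes it was -0.53, with 22 lower. No test of the differences between these groups was made.

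The other 11 genes were not lower in P21_WT. Mrps31, a mitochondria-specific protein, had the largest value in this direction, 0.70 ± 0.35 (SE, limma adjusted p = 0.488). It read 4.99 and 4.61 in P4_WT, 5.88 and 5.11 in P21_WT, and 5.48, 4.64, 5.47 and 4.97 in P21_KO. Mrpl4 followed at 0.35, with P21_WT arrays at 6.21 and 5.28. Mrpl54 (0.21), Mrpl39 (0.18), Mrpl24 (0.13), Mrpl19 (0.13), Mrpl27 (0.05), Mrpl28 (0.05) and Mrpl48 (0.02) lay between 0.02 and 0.21, and the other 2, which are not named singly, reached at most 0.07. None of the 11 had an unadjusted p under 0.05.

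**Figure D2:**
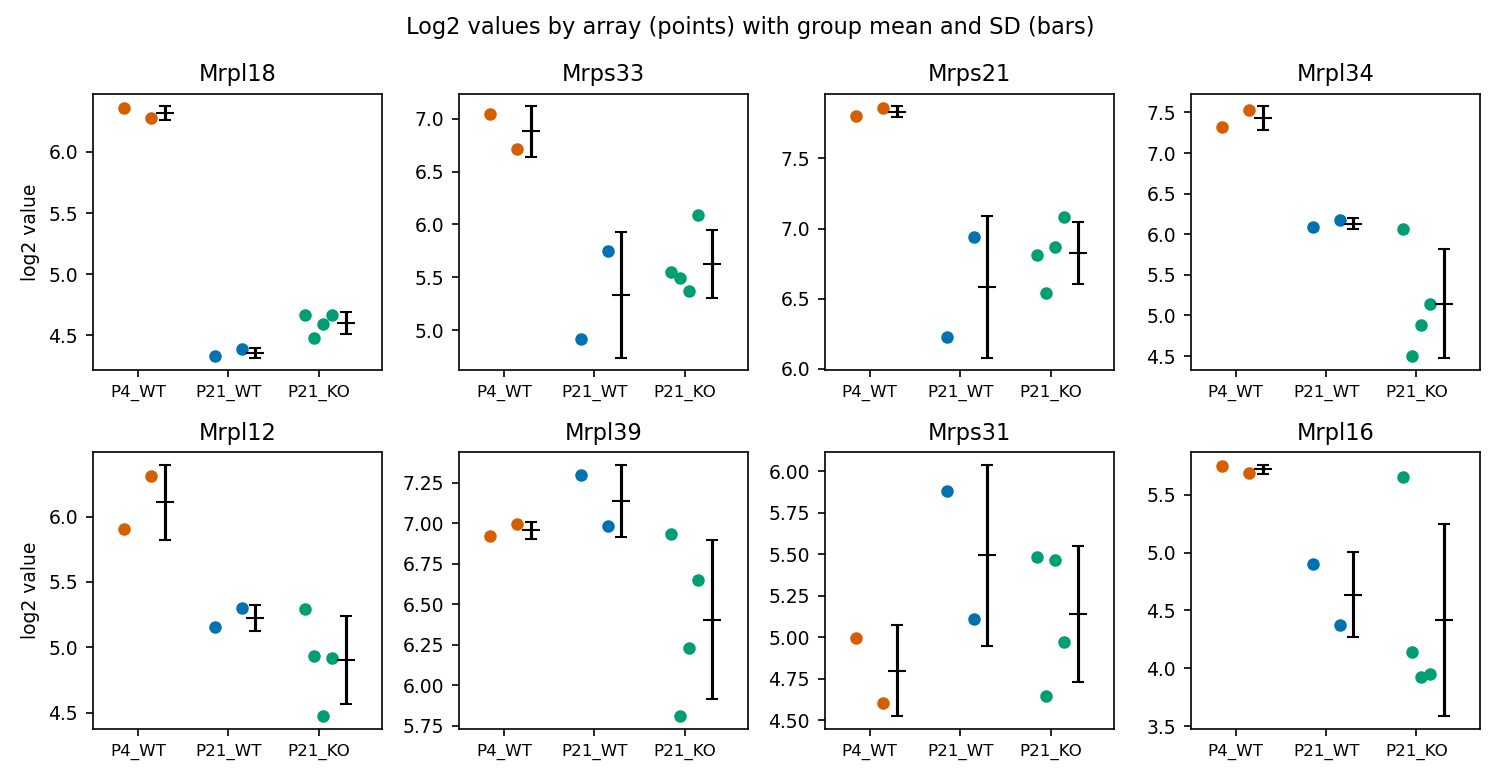
Log2 values of 8 mitochondrial ribosomal protein genes on each array (points), with the group mean and SD (bars; n = 2, 2 and 4), each panel on its own log2 scale that does not start at 0. Mrpl18 separates P4_WT from the 6 P21 arrays most tightly, and in Mrpl34 and Mrpl16 P21_KO replicate 1 lies apart from the other 3 P21_KO arrays.

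The genotype comparison, P21_KO minus P21_WT, asks which genes of the stem cell population differ with loss of B-raf and C-raf. No mitochondrial ribosomal protein gene differed past the test. Limma called 0 of 22180 genes (0%) and 0 of the 71. An unadjusted p under 0.05 was reached by 818 genes that were lower (3.69%) and 629 that were higher (2.84%), and among the 71 genes by 4 lower and 0 higher ones. A change past 2-fold lower was measured for 0 of the 71 and for 0.888% of all genes. In P21_KO 45 of the 71 were lower (63.4%, against 48.6% of all genes), with a median of -0.08 against 0.01. Both varied in size with single arrays. The median was -0.14 without P21_WT replicate 1 and -0.03 without P21_KO replicate 2, where 37 of the 71 were lower, and 52 were lower without P21_KO replicate 1. The groups did not overlap in 6 genes that were lower in P21_KO (Mrpl19, Mrpl28, Mrpl34, Mrpl39, Mrps12 and Mrps24), against 7.64% of all genes, and in 1 that was higher, Mrpl18, against 7.75%. Mrps24 is outside the rule for named genes and is named after its values were seen.

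The 4 genes with an unadjusted p under 0.05 were Mrpl19, Mrpl34, Mrpl39 and Mrpl4, all of the large subunit. Mrpl19, counterpart of L19, read 4.70 and 4.52 in P21_WT and 4.09, 3.90, 3.87 and 3.85 in P21_KO. Its change was -0.68 ± 0.24 (SE, limma adjusted p = 0.67). The P4_WT arrays, at 4.04 and 4.93, spanned those of P21_WT. Mrpl34 had the largest change, -0.98 ± 0.37 (SE, limma adjusted p = 0.717). Mrpl39, a mitochondria-specific protein, read 7.30 and 6.98 in P21_WT and 6.94, 5.81, 6.23 and 6.65 in P21_KO (-0.74 ± 0.29 SE, limma adjusted p = 0.736). Mrpl4, counterpart of L4, had a change of -0.60 ± 0.25 (SE, limma adjusted p = 0.748). The change of Mrpl20, counterpart of L20, was -0.67 ± 0.35 (SE, limma adjusted p = 0.835).

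Changes in the other direction were smaller in size. Mrps10 was at 0.48 ± 0.23, Mrps2 at 0.46 ± 0.26, Mrps5 at 0.45 ± 0.21 and Mrpl18 at 0.25 ± 0.13 (log2, SE), with limma adjusted p of 0.793 to 0.86. These are counterparts of S10, S2, S5 and L18. A second, dimmer probe set of Mrps5 gave a genotype change of 0.21. In P21_KO against P4_WT the 2 probe sets of Mrps5 differed in sign, with 0.05 for the one used and -0.63 for the dimmer one.

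The P21_KO arrays differed among themselves, and many of the genes shared the difference. Replicate 1 was the highest of the 4 in 32 of the 71 genes (45.1%, against 23.5% of all genes) and replicate 2 the lowest in 31 (43.7%, against 23.3%). Replicate 2 was the highest in only 2 (2.82%, against 26.1%). The median SD of the 71 genes was 0.37 in P21_KO, 0.23 in P21_WT and 0.22 in P4_WT. For genes above the median value it was 0.30, 0.20 and 0.21. An SD from 2 arrays tends to read lower than one from 4, so these values do not compare the spread of the groups. Melanocyte lineage markers had another order, with means of 8.55, 8.10, 7.58 and 7.05 in P21_KO replicates 1 to 4. Mrpl16, counterpart of L16, and Mrps16 had the largest SD in P21_KO, 0.83 and 0.70. Mrpl16 read 5.66, 4.14, 3.92 and 3.95 in P21_KO, 5.75 and 5.69 in P4_WT and 4.90 and 4.38 in P21_WT, so that replicate 1 stood beside the pups and the other 3 below all wild-type arrays.

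Set against the pups, the knockout population gave a larger number of calls, though this number does not compare the sizes of the changes. With 4 P21_KO arrays against 2 of P21_WT, the SE was smaller than by age. Mrps33 was called in P21_KO against P4_WT at -1.25 and not by age, where it was at -1.55. P21_KO minus P4_WT differs in both age and genotype, and it uses the same P4_WT arrays as the age comparison and the same P21_KO arrays as the genotype comparison, so it adds no independent evidence to them. Of the 71 genes 64 were lower in P21_KO (90.1%, against 47.3% of all genes), with a median of -0.69 against 0.02. Limma called 1038 of 22180 genes lower (4.68%) and 677 higher (3.05%). Of the 71 it called 11 lower (15.5%) and 0 higher. At an unadjusted p under 0.05, 41 of the 71 were lower and 0 higher, against 12.4% and 8.1% of all genes, and 21 of the 71 were past 2-fold lower, against 5.38%. No overlap between the arrays of these groups was seen in 46 of the 71 that were lower, against 15.5% of all genes, and in 0 that were higher, against 14.2%.

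**Figure D3:**
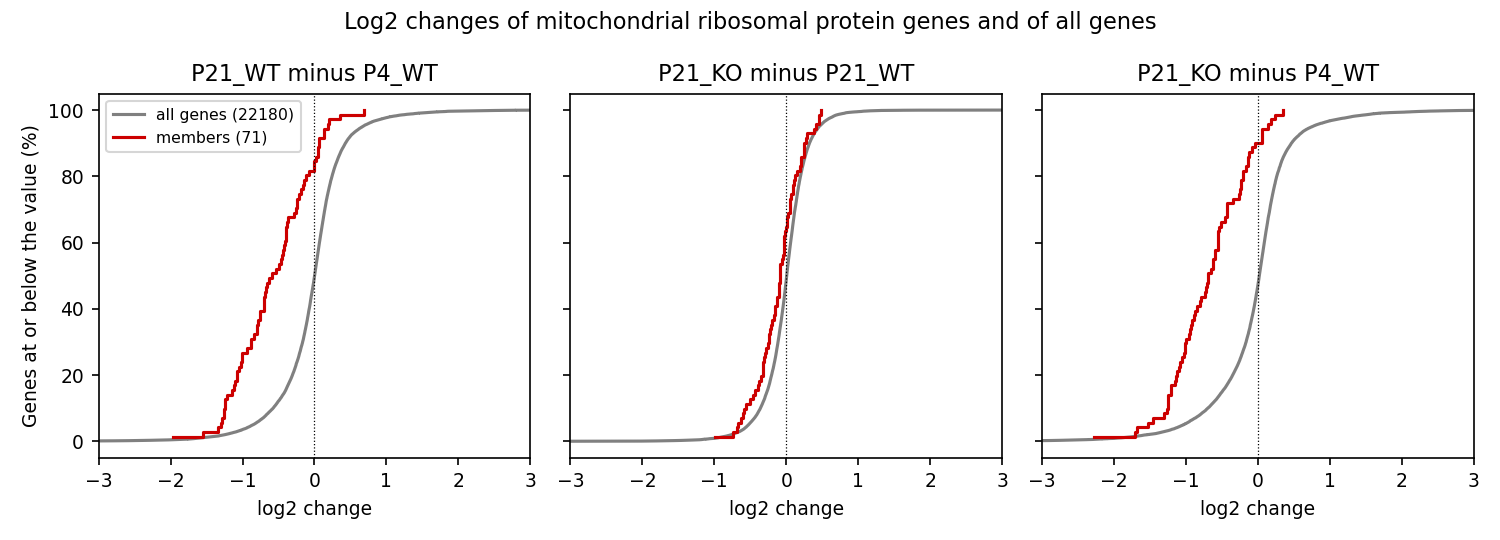
Cumulative share of genes (vertical axis, percent) at or below each log2 change (horizontal axis) for the 71 mitochondrial ribosomal protein genes and all 22180 genes in the 3 comparisons, which share arrays; the axis ends at changes of 3 in either direction. The curve of the 71 genes lies to the left in both comparisons with P4_WT (medians -0.60 and -0.69) and close to that of all genes between the P21 groups (median -0.08).

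The called genes were 1.83- to 4.87-fold lower in P21_KO than in P4_WT. Of the large subunit, Mrpl34 fell by 2.28 ± 0.37, Mrpl18 by 1.72 ± 0.13, Mrpl49 by 1.52 ± 0.34 and Mrpl12 by 1.21 ± 0.23 on the log2 scale (SE), with limma adjusted p of 0.0089, 0.000348, 0.0309 and 0.0182. Mrpl11 fell by 1.20, Mrpl51 by 1.10 and Mrpl35 by 0.87, with limma adjusted p of 0.0407 to 0.0427. Of the small subunit, Mrps35 fell by 1.27, Mrps33 by 1.25, Mrps11 by 1.16 and Mrps21 by 1.01, with limma adjusted p of 0.0332 to 0.0373. In P21_WT the same 11 genes were lower than in P4_WT by log2 changes of -1.96 to -0.88, of which only that of Mrpl18 passed. All 6 P21 arrays lay below both P4_WT arrays in 41 of the 71 genes, against 11.3% of all genes, and above both in 0, against 9.46%.

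Most of these calls were lost in some of the fits without 1 array, while the changes of the 11 genes stayed between -2.59 and -0.77. The P21_WT arrays are not compared here, so leaving 1 out acts only through the shared estimate of the spread. The count over all 71 genes, 11 in the main fit, was 4 without P21_KO replicate 2 and 5 without P21_KO replicate 3. Both counts include genes outside the 11, so fewer of the 11 kept their call. The count also fell without 1 P4_WT or 1 P21_WT array, which leaves 1 array in that group. Without P4_WT replicate 1 the median change of the 71 genes was -0.61, and without replicate 2 it was -0.77. The count was 5 after quantile normalization or cyclic loess and 18 with genes of low mean left out. With the replicate number as a block, where it is not known whether the numbers pair the samples, Mrpl18 alone of the 11 was called. Mrpl18 kept its call in all 8 fits without 1 array. Mrpl12 and Mrpl34 kept theirs in 7 of 8 and lost it without P4_WT replicate 2, at limma adjusted p of 0.128 and 0.063. The other 8 genes kept theirs in 1 to 3 of the 8. Mrpl16 and Mrpl42 were called only without P21_KO replicate 1 among these fits (limma adjusted p = 0.0042 and 0.0256), and Mrpl19 only without P4_WT replicate 1 (limma adjusted p = 0.0347). The median change of the 71 genes ranged from -0.77 to -0.61 over the fits without 1 array.

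The remaining 41 genes, which are not named singly, ran from -1.34 to 0.07 by age (39 lower), from -0.63 to 0.42 by genotype (29 lower) and from -1.46 to 0.06 in P21_KO against P4_WT (40 lower).

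The DNA before the start of the called genes is shown for 5 of the 11, because these hold a match, within the 200 bases that precede the annotated start, to a motif known from nuclear genes of mitochondrial proteins. Sequences are RefSeq's (build GRCm38.p6), read 5′ to 3′ on the gene's strand, with the match in capitals. The stretches are chr8:71464726-71464925 (+) for Mrpl34, chr6:125192000-125192199 (+) for Mrpl51, chr11:120484437-120484636 (+) for Mrpl12, chr3:95871515-95871714 (-) for Mrps21 and chr7:78782931-78783130 (+) for Mrps11. Capitals mark an ETS-type motif (the kind read by GABP) in Mrpl34 and Mrpl51, an NRF1-type motif in Mrpl12 and Mrps21, and a YY1-type motif, on the opposite strand, in Mrps11.
Mrpl34: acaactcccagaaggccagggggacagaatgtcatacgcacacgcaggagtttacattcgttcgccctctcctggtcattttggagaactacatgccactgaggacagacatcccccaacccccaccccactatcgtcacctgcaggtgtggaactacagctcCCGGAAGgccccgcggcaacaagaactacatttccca
Mrpl51: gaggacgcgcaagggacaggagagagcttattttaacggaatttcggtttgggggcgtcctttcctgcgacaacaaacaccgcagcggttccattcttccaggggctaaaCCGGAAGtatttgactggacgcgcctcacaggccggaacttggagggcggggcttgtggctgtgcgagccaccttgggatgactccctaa
Mrpl12: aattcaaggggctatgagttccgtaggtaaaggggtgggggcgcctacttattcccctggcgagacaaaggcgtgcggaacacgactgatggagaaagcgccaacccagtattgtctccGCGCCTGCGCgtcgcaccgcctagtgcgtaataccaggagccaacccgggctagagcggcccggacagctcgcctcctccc
Mrps21: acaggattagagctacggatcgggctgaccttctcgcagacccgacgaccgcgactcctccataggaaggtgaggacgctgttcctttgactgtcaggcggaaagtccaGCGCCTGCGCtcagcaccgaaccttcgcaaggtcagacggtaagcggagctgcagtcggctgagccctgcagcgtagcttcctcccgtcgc
Mrps11: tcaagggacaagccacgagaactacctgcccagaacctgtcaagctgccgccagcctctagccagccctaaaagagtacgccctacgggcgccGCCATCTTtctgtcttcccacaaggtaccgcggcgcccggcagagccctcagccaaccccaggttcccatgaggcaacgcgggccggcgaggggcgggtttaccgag
The first base of the match is 37 bases before the start in Mrpl34, 90 in Mrpl51, 81 in Mrpl12, 91 in Mrps21 and 107 in Mrps11.

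Of the 71 genes 62 were matched to a RefSeq promoter window, which runs from 250 bases before to 50 after the first listed start. Both strands were searched. CCGGAAG (ETS) was found in 22 of the 62 windows (35.5%), against 11.7% of the 16990 windows of genes measured here. AAGATGGC (YY1) was found in 12 (19.4%, against 3.31%). The NRF1 palindrome, GCGCA followed directly by TGCGC, was found with at most 1 mismatch in 14 (22.6%, against 8.94%). Its form with any base in place of its A, which is contained in that search, was found in 11 (17.7%, against 6.72%). CACGTG, the E-box that MITF and MYC can bind, was found in 5 (8.06%, against 8.18%). The share with a match was above that of all measured genes for ETS, YY1 and NRF1 and close to it for the E-box. The windows also held more CpG, with a median of 21 sites against 13 and a median GC content of 58.2% against 56.3%. No test of these differences was made.

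The median age change was below 0 with and without each motif. It was -0.69 with an ETS match and -0.55 without, -0.72 and -0.61 for NRF1, -0.82 and -0.61 for YY1, and -0.76 and -0.63 for the E-box. In P21_KO against P4_WT it was -0.80 and -0.64 for ETS, -0.66 and -0.71 for NRF1, -0.91 and -0.66 for YY1, and -0.92 and -0.70 for the E-box, so that with NRF1 the order turned. No test was made. Among the 11 genes called in P21_KO against P4_WT, 10 had a window and 9 of these held an ETS, NRF1 or YY1 match. The same search found a match in 38 of the 62 windows (61.3%) and in 21.1% of the 16990. A match describes the sequence only, and no binding was measured.

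**Figure D4:**
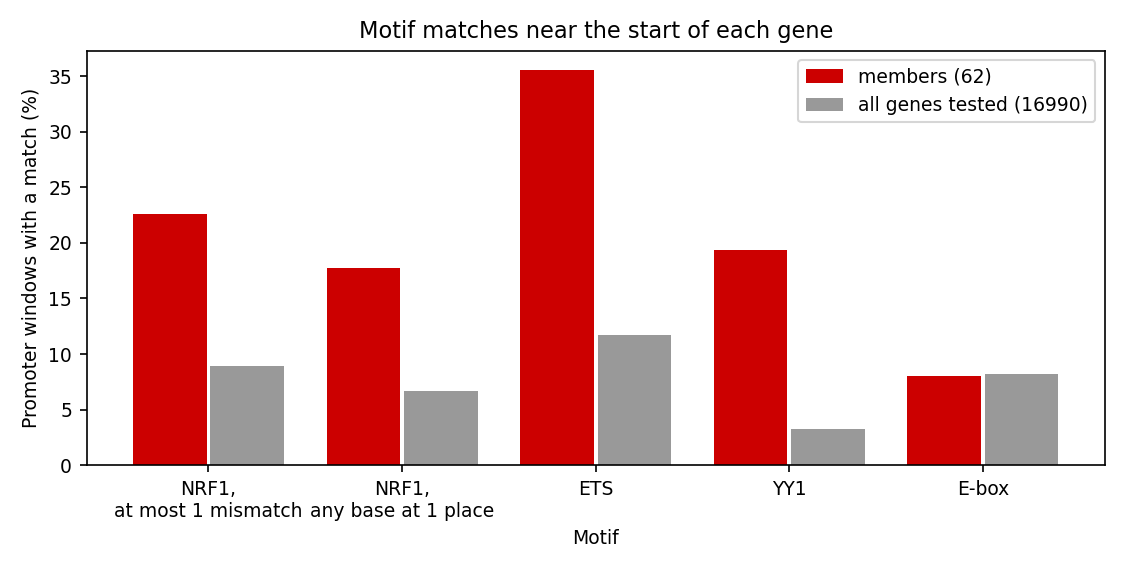
Share of promoter windows (vertical axis, percent, from 0) with a match to each of 5 motif searches (horizontal axis) for 62 mitochondrial ribosomal protein genes and 16990 measured genes. ETS matches are in 35.5% against 11.7% and YY1 matches in 19.4% against 3.31% of windows, while E-box shares are 8.06% and 8.18%.

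Other parts of the mitochondrial gene expression machinery were read from lists of their own. Of 26 measured assembly factors of the mitochondrial ribosome 19 were lower in P21_WT, with a median of -0.18 and 0 called. Noa1, a GTPase needed for assembly, fell in P21_KO against P4_WT by 1.28 ± 0.28 on the log2 scale (SE, limma adjusted p = 0.0311), the 1 call among the 26. Its age change was -1.55 (limma adjusted p = 0.0636). Of 14 translation factors 9 were lower with age (median -0.39) and 0 were called in any comparison. The smallest p by age in that list was that of the elongation factor Gfm1 (-0.77, limma adjusted p = 0.305). By genotype it was that of Taco1, a translational activator of a cytochrome oxidase subunit (-0.87 ± 0.14 SE, limma adjusted p = 0.284).

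Mitochondrial aminoacyl-tRNA synthetases (19 measured, median age change 0.03, 9 lower) and genes of mitochondrial transcription and DNA upkeep (14 measured, -0.04, 7 lower) lay near the median of all genes, with 0 called in any comparison. Dap3, a GTP-binding protein of the small subunit with a symbol outside the rule, was at -0.54 by age and 0.54 by genotype, and read 5.45 in both P4_WT arrays. Among 9 regulators of mitochondrial gene expression the median age change was -0.05. Ppargc1a read 4.26 and 4.39 in P4_WT, 3.86 and 4.50 in P21_WT, and 3.20, 3.10, 3.46 and 2.60 in P21_KO. All P21_KO arrays were below all others. It fell by 1.24 ± 0.26 (log2, SE) in P21_KO against P4_WT (limma adjusted p = 0.0271), while its genotype change of -1.09 did not pass (limma adjusted p = 0.565).

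Genes of other large complexes were also lower at 21 days. The median age change was -0.48 for 77 oxidative phosphorylation genes, -0.41 for 38 proteasome genes and -0.23 for 64 cytosolic ribosomal protein genes, against -0.60 for the mitochondrial ribosomal proteins. In P21_KO against P4_WT the medians were -0.72, -0.55, -0.41 and -0.69 in that order, with 25, 8, 14 and 11 genes called lower and 1 cytosolic ribosomal protein gene called higher, against 4.68% and 3.05% of all genes. By age limma called 1 of the 77 oxidative phosphorylation genes lower and 0 of the proteasome and cytosolic ribosomal protein genes, against 0.852% of all genes. Lower values were thus shared with other lists, and differences between the lists were not tested. All 11 measured proliferation genes were lower by age (median -2.74), 8 of them called, and 11 were called lower in P21_KO against P4_WT.

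**Figure D5:**
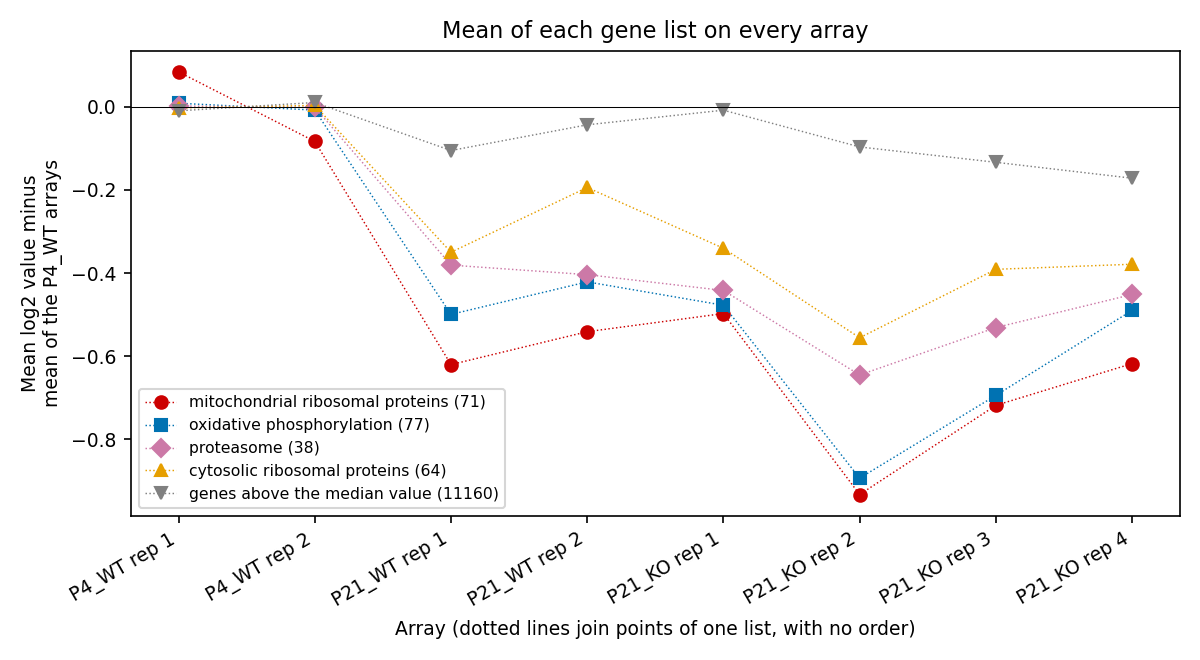
Mean log2 value of 4 gene lists (mitochondrial ribosomal proteins, oxidative phosphorylation, proteasome and cytosolic ribosomal proteins) and of the 11160 genes above the median value on each array minus its mean over the P4_WT arrays (vertical axis), by array (horizontal axis, replicates without order); dotted lines only join points of 1 list. All 4 lists are lowest on P21_KO replicate 2, where the mitochondrial ribosomal protein mean is 4.90, and on the P21 arrays the genes above the median value are nearer to 0 than the 4 lists drawn.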

How the data were processed

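The deposited log2 values of 8 arrays were used as they stood. Per the submitters' processing notes, the authors made them in Affymetrix Expression Console by RMA, with no version given in the sources. RMA compresses differences near the floor. The arrays' distributions were not identical over the 22180 genes, with an upper quartile of 5.21 on both P4_WT arrays and 4.95 to 5.17 on the P21 arrays. Values ran from 0.913 to 12.2. Of 41345 probe sets, 23521 had 1 gene symbol, which left 22180 genes. No filter on low values was applied, and 69 of the 71 genes had a mean above the median of all values (3.37).

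With limma 3.58.1 (R 4.3.3, lmFit and eBayes) 1 model of the 3 groups took in all 8 arrays, leaving 5 residual degrees of freedom. P-values are two-sided, Benjamini-Hochberg adjusted over all genes, with calls made where the adjusted p lay under 0.05. Precision is limited by the number of arrays. The fit was tested on simulated data with independent normal noise. In each comparison 100 genes were changed by 1 and 100 by 2, genes of low mean were not among them, and no others changed. Adjusted p depends on how many genes change, so the shares recovered need not hold for the measured data. Of 100 changes of 1 on the log2 scale it recovered 5 by age, 19 by genotype and 23 for P21_KO against P4_WT. Of 100 changes of 2 it recovered 50, 68 and 68. A gene that was not called may therefore still differ. Named are all called genes of the family and, in each comparison, the 6 lower and 4 higher with the smallest p. Mrpl10, Mrpl11, Mrpl12 and Mrps12 and the 2 with the largest SD in P21_KO are named too. So are those whose probe sets disagree in the sign of the age change. From other lists, the called genes or those with the smallest p are named. Members and lists were chosen with earlier results of these data known. Alternatives covered the samples, blocks, weights, prior, normalization, filter, probe set, threshold and single arrays. Promoter windows were searched with Python 3.11.15.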

Additional observations from a re-analysis of the deposited data

Results flagged for a closer look

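In 2 of 31 results tested among the 4 P21_KO arrays, 1 array stood far from the others by Dixon's criterion for 4 values. Mrpl16 read 5.66 in P21_KO replicate 1 and 3.92 to 4.14 in the other 3 arrays. Mrps12 read 5.33 in P21_KO replicate 2 and 5.89 to 6.01 in the other 3. Chance marks about 1 in 20 such groups, a rate that does not hold for genes picked by their values. Mrpl16 was among the 31 for its large SD on these same 4 arrays.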

How the results depend on the processing

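The count of mitochondrial ribosomal protein genes called by age was 1 and became 3 with genes of low mean left out and 5 at an adjusted p under 0.1. Over the fits without 1 array it was 1 to 1, and the median change ran from -0.701 to -0.463. By genotype the count was 0 under every alternative run, with medians of -0.135 to -0.0292 without 1 array. For P21_KO against P4_WT the count of 11 became 7 with only these groups in the fit, 5 after quantile normalization (median -0.52), 5 after cyclic loess, 18 with genes of low mean left out and 25 at an adjusted p under 0.1. Without 1 array it was 3 to 11, and the median ran from -0.771 to -0.609. No gene called in the main fit changed direction, and no median did in the fits without 1 array. Changes that were not called could turn, as that of Mrpl47 by age did, to 0.12 with its dimmer probe set. Deviations of arrays with the same replicate number had correlations of -0.0372 to 0.00573 over all genes (6 pairs). Over the mitochondrial ribosomal protein genes alone these ran from -0.048 (P21_WT and P21_KO replicates 2) to 0.215 (P4_WT and P21_WT replicates 1). In a group of 2 arrays the deviations mirror each other, so the 6 pairs are not independent. Whether the numbers pair the samples is therefore not known. With the replicate number as a block the counts were 1 by age, 0 by genotype and 1 for P21_KO against P4_WT. With 2 arrays in each wild-type group, leaving out 1 assumes that the lone array varies like the other groups. No background signal was measured here, so which genes read near the floor is not known.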
